A study of Mus musculus with 6 samples.

Results

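Long noncoding RNA (lncRNA) genes that were well expressed in cultured CD8+ T cells were compared between effector cells (T_Eff) and cells expanded toward a tissue-resident memory phenotype (T_RM-like). The 94 genes described here were the entries of the deposited gene count table that the GENCODE mouse annotation types as lncRNA and that had a raw count of at least 200 in each of the 6 samples. They were 94 of 11415 lncRNA genes in a table of 57126 genes, and 2832 of the lncRNA genes had no read in any sample. The members were thus chosen by the counts themselves, so that their presence in both groups is a property of the rule, and no gene confined to either group could enter. Just inside the limit were C030029H02Rik, with counts of 289, 330, and 228 in T_Eff replicates 1 to 3 and 436, 433, and 201 in T_RM-like replicates 1 to 3, Gm63661, with a lowest count of 201, and Gm56829, with a lowest count of 204. Just outside it were 1600020E01Rik and 4933406I18Rik, each with a lowest count of 196, and Gm17494, with a lowest count of 195.

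All samples were CD8+ T cells of OT-I mice, in which a transgene gives the cells a receptor for an ovalbumin peptide. They were isolated from the lymph nodes and spleens of the mice and stimulated with nanoparticle artificial antigen-presenting cells. Both groups received IL-2. T_Eff cells (3 samples) had no other cytokine, T_RM-like cells (3 samples) also received IL-15 as well as TGF-β, and all were harvested on day 6. T_RM-like is therefore the name of a culture condition and not of cells taken from a tissue. The labels give neither the age of the mice nor whether replicates came from separate animals or cultures, so the p-values measure the spread between these samples, which may be technical. In bulk RNA, more cells expressing a gene and more RNA per cell cannot be told apart.

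The libraries held 18319013 to 23622621 counted reads, of which the 94 genes took 0.476% to 0.584%. Levels are given as CPM, read counts scaled to a common library size, with effective sizes from edgeR's TMM method. Cd8a, Cd8b1, Cd3e, Cd3g, and Trac, which define CD8+ T cells, summed to 1650 to 1773 CPM in T_Eff and 2279 to 3127 CPM in T_RM-like samples. The 17 markers of other cell types summed to 65.4 to 95.1 CPM and 23.1 to 56.2 CPM, mostly from Pecam1 and Klrb1c, with Cd4, Ms4a1, and the globin genes at or near 0, and the part of other cells in the results was not tested. T_RM-like replicate 3 stood apart from the other samples of its group. Over genes, the chi-square per gene was 7.26 between T_RM-like replicates 1 and 2, but 96.3 and 112 between each of them and replicate 3, which was nearer to T_Eff replicates 1 and 3 (41.9 and 37.4). T_Eff replicate 2 also stood apart, at 26.1 and 25.4 from T_Eff replicates 1 and 3, against 3.73 between those. T_RM-like replicates 1 and 2 in turn had a read in 35130 and 35559 genes, against 24229 to 24908 in the other 4 samples. That low background, measured on olfactory and vomeronasal receptor genes, came to at most 3.0% of the counts of any member, reached in Kcnq1ot1.

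lncRNAs are transcripts longer than small RNAs that are not annotated as coding for protein. Some act as RNA, such as Malat1 in nuclear speckles and Neat1, the scaffold of paraspeckles. Others are valued mainly for what they carry, since snoRNA host genes release small nucleolar RNAs from their introns and microRNA (miRNA) host genes give rise to miRNA hairpins. A further class lies antisense to, or starts back to back with, a protein-coding gene. CD8+ T cells use several miRNA hosts, among them Mir142hg, whose miRNA is characteristic of blood cells, and Mir17hg, whose cluster is known for promoting lymphocyte growth.

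Per kilobase of gene length, the mean level of the members over the 6 samples ranged from 1.12 to 499 CPM per kb, with a median of 9.62 CPM per kb. The 10 genes with the highest level per length were Gm10076, AW112010, Malat1, Mir142hg, Gm56517, Gm15564, Gm56536, Gm28901, Ndufb4b, and Gas5. Malat1 alone took 19.3% of all member counts. The members were long for lncRNA genes, with a median listed length of 2967 bases against 1052 bases for the other 11321 lncRNA genes, and a longer gene reaches a fixed count more easily. By position, 57 were intergenic, 27 overlapped a protein-coding gene on the opposite strand only, 4 on the same strand only, and 1 on both, and 5 were divergent, meaning that they started within 2 kb of a coding gene on the opposite strand.

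Most of the 94 genes had similar levels in both groups. The log2 fold change of T_RM-like over T_Eff had a median of -0.02, beside 0.02 over all 26154 genes tested and -0.02 over the 8466 genes of any type that reached the same minimum count. In 80 of the 94 genes it lay within 0.58 of 0, and in 4 it exceeded 1 in size. Its standard error (SE) had a median of 0.19 and exceeded 0.3 in 10 genes. The threshold was an adjusted p below 0.05 in edgeR's quasi-likelihood test over all genes tested (Benjamini-Hochberg) with a log2 fold change above 0.58 in size. It was passed by 3 members, AU020206 higher and Gm56730 and Gm2682 lower in T_RM-like cells. That is 3.19% of the members, beside 3.01% of all genes tested (1.52% higher and 1.48% lower) and 3.58% of the genes with the same minimum count, so the share among the members was near the background. DESeq2 called 7 members (7.45%), beside 4.80% of all genes. At an unadjusted p below 0.05 the share was 22.3% (21 of 94), beside 14.8% of all genes and 16.1% of genes with the same minimum count. The values of the groups did not overlap in 27 members, 11 higher and 16 lower in T_RM-like cells, which is 28.7% beside 20.3% of all genes tested (10.6% higher and 9.71% lower) and 23.3% of genes with the same minimum count.

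**Figure D1:**
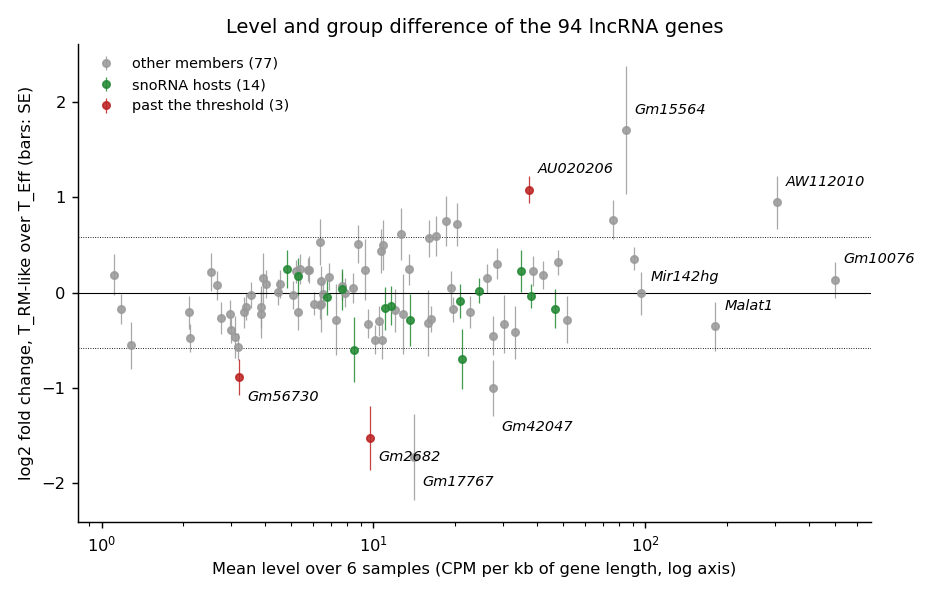
Mean level of each of the 94 lncRNA genes (CPM per kb of gene length, log axis) against its log2 fold change, T_RM-like over T_Eff, with bars for the SE; dotted lines mark 0.58 on either side of 0. Most genes lie between the dotted lines at all levels, and the 3 genes past the threshold, AU020206, Gm56730, and Gm2682, stand outside them.

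AU020206 was the one member higher in T_RM-like cells. It measured 73.6, 85.7, and 71.0 CPM in T_Eff replicates 1 to 3 and 177, 152, and 159 CPM in T_RM-like replicates 1 to 3. The groups were far apart, and T_RM-like replicate 3 sat with the other samples of its group. The log2 fold change was 1.08 ± 0.14 (SE, n = 3 per group; edgeR quasi-likelihood test, Benjamini-Hochberg adjusted p = 0.0038). The gene stayed past the threshold in each of the 17 alternative analyses, with a log2 fold change between 1.02 and 1.17. These include the same fit judged on adjusted p alone, in which a called gene could not lose its call. AU020206 lies on chromosome 7, 75398815 to 75440938, on the minus strand (GRCm39) and overlaps Akap13, a kinase-anchoring protein gene, on the opposite strand. Akap13 measured 406 to 605 CPM in T_Eff and 386 to 434 CPM in T_RM-like cells, with a log2 fold change of -0.24 ± 0.18 (edgeR quasi-likelihood test, Benjamini-Hochberg adjusted p = 0.607). Only 1.11% of the exonic bases of AU020206 are shared with another gene, and no part of its transcript matched another locus. The annotation places a miRNA gene, Gm55660, inside it, for which no mature sequence was matched.

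The sequence around the annotated start of AU020206 is shown because IL-15 acts through STAT factors and TGF-β through SMAD factors, whose known DNA motifs can be looked for there. The window runs from 250 bases before to 50 bases after the start of the canonical transcript, at chr7:75431798-75432097 on the minus strand of GRCm39, and motif matches would stand in capitals.
AU020206: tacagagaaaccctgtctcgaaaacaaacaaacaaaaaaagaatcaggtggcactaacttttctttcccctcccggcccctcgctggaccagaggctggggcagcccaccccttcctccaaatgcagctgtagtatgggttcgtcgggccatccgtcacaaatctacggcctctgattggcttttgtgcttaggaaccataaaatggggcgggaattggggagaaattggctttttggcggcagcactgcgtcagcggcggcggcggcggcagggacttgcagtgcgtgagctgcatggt
On both strands, these letters held neither the STAT motif TTCNNNGAA, the SMAD core CAGAC, nor the SMAD palindrome GTCTAGAC. The same searches found TTCNNNGAA in 8.85%, CAGAC in 48.6%, and GTCTAGAC in 0.198% of the windows of 56618 genes. Among the 94 members they found TTCNNNGAA in 2 windows (2.13%), CAGAC in 47 (50%), and GTCTAGAC in 0. The corresponding window of Gm56730 held 1 CAGAC, and that of Gm2682 held none of these motifs.

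Gm2682 was lower in T_RM-like cells. It measured 33.2, 54.2, and 32.3 CPM in T_Eff replicates 1 to 3 and 9.51, 10.3, and 21.9 CPM in T_RM-like replicates 1 to 3. The groups did not overlap, although T_RM-like replicate 3 lay well above its group's other samples. The log2 fold change was -1.52 ± 0.34 (edgeR quasi-likelihood test, Benjamini-Hochberg adjusted p = 0.0491), just inside the threshold, and without T_RM-like replicate 3 it was -2.02. Gm2682 is an intergenic gene with 16 exon blocks on chromosome 15, 59962013 to 60059381, and its transcript matched no other locus. Its nearest coding gene, 4933412E24Rik, lies 73551 bases away and could not be tested.

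Gm56730 was the other gene lower in T_RM-like cells. Its values were 18.8, 24.8, and 18.5 CPM in T_Eff replicates 1 to 3 and 9.81, 10.1, and 13.6 CPM in T_RM-like replicates 1 to 3, again without overlap. The log2 fold change was -0.89 ± 0.19 (edgeR quasi-likelihood test, Benjamini-Hochberg adjusted p = 0.0403). The gene lies on chromosome 15, 82242751 to 82252084, 2643 bases from Cyp2d22, a cytochrome P450 gene that was close to silent here, with 0.0553 to 0.306 CPM in every sample. The counts of Gm56730 cannot be assigned to it with certainty, because 94.9% of its transcript matched the transcript of another member, Gm20186 on chromosome 6, at 95% identity or more. An alignment between the longest annotated transcript of each gene spanned 1709 bases at 96.8% identity, with 37 mismatches and 18 gapped positions. A stretch of 60 bases from the alignment is shown, at bases 2592 to 2651 of Gm56730 and 1508 to 1567 of Gm20186. It was picked near the middle to hold no gap and at least 1 mismatch, and the mismatched base is in capitals.
Gm56730: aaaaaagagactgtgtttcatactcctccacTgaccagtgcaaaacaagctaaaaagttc
Gm20186: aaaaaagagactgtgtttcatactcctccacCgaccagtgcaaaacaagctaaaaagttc
Gm20186 itself measured 19.3, 23.7, and 20.7 CPM in T_Eff and 13.3, 14.6, and 15.1 CPM in T_RM-like replicates 1 to 3. Its groups did not overlap either, but with a log2 fold change of -0.57 ± 0.14 it did not pass the threshold (edgeR quasi-likelihood test, Benjamini-Hochberg adjusted p = 0.0779). The related member Gm56906, 69.5% of whose transcript matched Gm20186, had a log2 fold change of -0.30 ± 0.16. How reads that map to several places were counted is not given in the sources used here, so reads may have been split or dropped among the 3 genes.

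**Figure D2:**
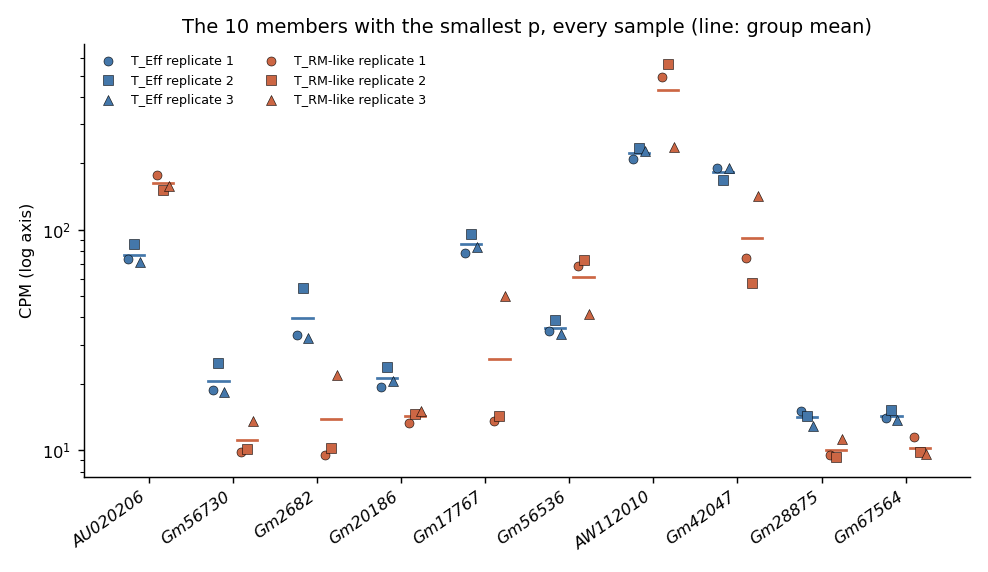
CPM (log axis) in every sample for the 10 members with the smallest p, with T_Eff in blue, T_RM-like in orange, a symbol for each replicate number, and a line at each group mean. AU020206 has all 3 T_RM-like samples together above T_Eff, whereas in AW112010, Gm17767, Gm2682, and Gm42047 T_RM-like replicate 3 lies between the T_Eff samples and T_RM-like replicates 1 and 2.

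Some other members had groups that did not overlap but did not pass the threshold. The following genes were picked out after their values were seen, as those with the smallest p below the called ones. Gm17767 measured 78.4, 95.8, and 83.8 CPM in T_Eff and 13.6, 14.3, and 50.2 CPM in T_RM-like replicates 1 to 3. Every T_RM-like value was lower, and the log2 fold change was -1.73 ± 0.45 (edgeR quasi-likelihood test, Benjamini-Hochberg adjusted p = 0.0928). AW112010, a transcript known to be induced in inflamed immune cells, measured 210, 234, and 227 CPM in T_Eff and 492, 566, and 238 CPM in T_RM-like replicates 1 to 3. T_RM-like replicate 3 was only just above the T_Eff samples, and the log2 fold change was 0.95 ± 0.28 (edgeR quasi-likelihood test, Benjamini-Hochberg adjusted p = 0.133). Gm42047 measured 191, 168, and 189 CPM in T_Eff and 74.4, 57.1, and 143 CPM in T_RM-like cells, with a log2 fold change of -1.0 ± 0.30, and 95.8% of its transcript matched other loci. Gm56536 measured 34.8, 39.0, and 33.8 CPM in T_Eff and 68.5, 72.7, and 41.7 CPM in T_RM-like cells, with a log2 fold change of 0.76 ± 0.21. In each of these 4 genes the groups did not overlap, and T_RM-like replicate 3 was the sample of its group nearest to T_Eff.

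Gm15564 had a large difference with a large error. It measured 65.4, 36.7, and 18.6 CPM in T_Eff and 102, 260, and 32.0 CPM in T_RM-like replicates 1 to 3, so that the values varied severalfold within each group and T_RM-like replicate 3 fell inside the T_Eff range. The log2 fold change was 1.71 ± 0.68 (edgeR quasi-likelihood test, Benjamini-Hochberg adjusted p = 0.281). Gm15564 lies antisense to Parp9, an interferon-inducible gene, which did pass the threshold (log2 fold change 0.67).

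Leaving out T_RM-like replicate 3 changed the count of members past the threshold more than any other change that was tried. With 3 T_Eff and 2 T_RM-like samples, 26 members passed, 12 higher and 14 lower in T_RM-like cells. That is 27.7% of the members, while 14.0% of all genes tested (6.38% higher and 7.67% lower) and 16.6% of the genes with the same minimum count passed in that analysis. The 26 included AU020206, Gm56730, and Gm2682. In 11 of the 26, T_RM-like replicate 3 lay on the same side of the T_Eff range as replicates 1 and 2, in 7 it lay within the T_Eff range, and in 8 it lay beyond it on the other side. Since the sample was left out because it stood apart, these calls describe 2 samples that were alike. Without T_Eff replicate 2 instead, 2 members were higher and 0 lower (edgeR quasi-likelihood test, with 8 lower at an unadjusted p below 0.05). The share of all genes in that fit is not given here, so these counts are not set against a background. T_RM-like replicate 3 lay within the T_Eff range in, for example, Gm14029, Gm20559, and AI506816. It lay on the other side in the miRNA host Mir17hg, Chaserr, and Gm63661. Chaserr restrains the chromatin remodeller gene Chd2, which it overlaps on the same strand. Of its exonic bases, 17.7% are shared with another annotated gene.

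Chaserr measured 45.3, 58.8, and 44.6 CPM in T_Eff and 79.3, 77.7, and 44.0 CPM in T_RM-like replicates 1 to 3. T_RM-like replicates 1 and 2 were above all T_Eff samples and replicate 3 was below them all, and the log2 fold change over all samples was 0.44 ± 0.23. Gm63661 showed the reverse order, with 20.1, 12.4, and 19.9 CPM in T_Eff and 8.94, 8.78, and 27.3 CPM in T_RM-like cells. Its counts are uncertain, since 96.5% of its transcript matched Timm8a1, a coding gene. Across all members, T_RM-like replicates 1 and 2 both lay on one side of the T_Eff range in 63 of 94 genes (67.0%), beside 63.7% of the genes with the same minimum count and 48.4% of all genes tested. Replicate 3 lay beyond the T_Eff range on the opposite side in 22 of the 94 (23.4%), beside 24.1% of the genes with the same minimum count, so the members were near that background. T_RM-like replicate 3 was the lowest of the 6 samples in 30 members (31.9%) and the highest in 21 (22.3%), beside 20.2% and 33% of the genes with the same minimum count. T_Eff replicate 2 was the highest in 28 members, or 29.8%, beside 15.5% of the genes with the same minimum count.

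**Figure D3:**
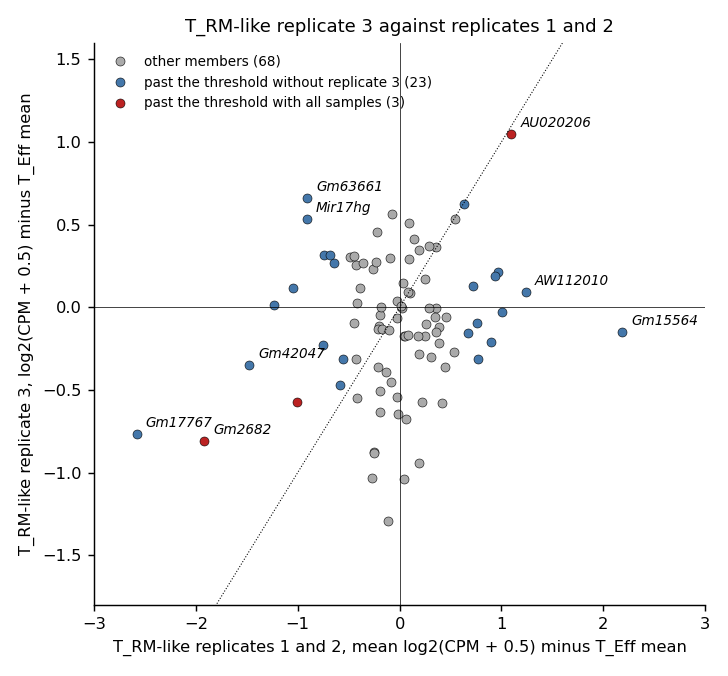
For each of the 94 genes, the mean of T_RM-like replicates 1 and 2 (x axis) and T_RM-like replicate 3 (y axis), both as log2(CPM + 0.5) minus the T_Eff mean; the dotted line marks equal values. AU020206 lies on the line, Gm17767, Gm2682, and Gm42047 are lower in all T_RM-like samples but less so in replicate 3, and Gm63661 and Mir17hg are below T_Eff on the x axis and above it on the y axis.

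Among lncRNAs known for roles in nuclear organization, no member of the list passed the threshold (0 of 5 in edgeR's quasi-likelihood test, in DESeq2, and in limma-voom, and 0 at an unadjusted p below 0.05). All 5 had negative log2 fold changes, with a median of -0.35, beside -0.02 over all genes with the same minimum count. T_Eff replicate 2 had the highest list median of any sample, at 0.35 on the log2(CPM + 0.5) scale relative to the T_Eff mean. Leaving out 1 sample moved the log2 fold change of Malat1 as far as -0.07 and that of Neat1 as far as 0.09. Malat1, the most abundant member, measured 921, 1533, and 931 CPM in T_Eff and 1151, 794, and 704 CPM in T_RM-like replicates 1 to 3. Its groups overlapped, T_Eff replicate 2 was the highest sample, and the log2 fold change was -0.35 ± 0.26 (edgeR quasi-likelihood test, Benjamini-Hochberg adjusted p = 0.597). Neat1 followed the same order within T_Eff, with 69.9, 123, and 72.2 CPM, and had 93.9, 74.8, and 58.4 CPM in T_RM-like cells.

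Kcnq1ot1, an imprinted transcript that silences its neighbours in cis, measured 132, 178, and 119 CPM in T_Eff and 109, 64.1, and 120 CPM in T_RM-like replicates 1 to 3, with a log2 fold change of -0.55 ± 0.25. Norad, which binds Pumilio proteins, measured 116 to 125 CPM in T_Eff, 91.4 and 91.2 CPM in T_RM-like replicates 1 and 2, and 130 CPM in replicate 3. Firre, an X-linked transcript with many repeats, measured 21.9 to 34.1 CPM in T_Eff and 14.2 to 22.5 CPM in T_RM-like cells, with a log2 fold change of -0.46 ± 0.22. Norad counts are uncertain as well, since 51.3% of its transcript matched the member Gm7292, nearly all of which (98.2%) matched Norad in turn. Genes of paraspeckle proteins, the partners of Neat1, did not pass either (0 of 6 in edgeR and DESeq2, 0 at an unadjusted p below 0.05), with a median log2 fold change of -0.09.

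The 14 snoRNA hosts among the members likewise held no gene past the threshold (0 in edgeR's quasi-likelihood test, in DESeq2, and in limma-voom, and 0 at an unadjusted p below 0.05). Their log2 fold changes ranged from -0.70 to 0.25 with a median of -0.07, and in none of them were the groups free of overlap. Gas5, which carries 10 snoRNAs and is itself known to restrain T cell growth, measured 148, 127, and 152 CPM in T_Eff and 99.6, 111, and 169 CPM in T_RM-like replicates 1 to 3. Its highest and its lowest value were both in T_RM-like samples, and the log2 fold change was -0.17 ± 0.20. Snhg1, with 8 snoRNAs, measured 72.3, 54.4, and 64.9 CPM in T_Eff and 49.9, 56.0, and 74.6 CPM in T_RM-like cells. Snhg12, with 5 snoRNAs, measured 31.3, 23.2, and 29.95 CPM in T_Eff and 20.9, 19.7, and 34.8 CPM in T_RM-like cells.

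The hosts varied among the T_RM-like samples. Relative to the T_Eff mean, the median of the 14 hosts on the log2(CPM + 0.5) scale was 0.08, -0.17, and 0.06 in T_Eff replicates 1 to 3 and -0.31, -0.18, and 0.24 in T_RM-like replicates 1 to 3. T_RM-like replicate 3 was the highest sample in 8 of the 14 and T_RM-like replicate 1 the lowest in 8. Among all genes with the same minimum count these samples were also the ones most often highest (33%) and lowest (22.7%), and the medians were 0.02, -0.04, and 0.03 in T_Eff and -0.07, -0.03, and 0.07 in T_RM-like samples. Genes of the core proteins that package snoRNAs, such as Fbl, Nop56, and Dkc1, were also highest in T_RM-like replicate 3, but lowest in T_RM-like replicate 2, with medians of 0.11, -0.25, and 0.14 in T_Eff and -0.75, -0.80, and 0.26 in T_RM-like samples. None of those 8 genes passed over all samples (0 in edgeR, DESeq2, and limma-voom, 0 at an unadjusted p below 0.05).

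Without T_RM-like replicate 3, 3 hosts passed, AI506816, Snhg5, and 1110038B12Rik, all lower in T_RM-like cells, and 5 of the 8 core protein genes were lower. In that analysis 10.9% of the genes with the same minimum count were lower. AI506816 measured 136, 117, and 130 CPM in T_Eff and 53.0, 54.9, and 129 CPM in T_RM-like replicates 1 to 3. Snhg5 measured 58.0, 41.4, and 52.9 CPM in T_Eff and 29.4, 33.2, and 62.6 CPM in T_RM-like cells. 1110038B12Rik measured 25.4, 16.6, and 28.7 CPM in T_Eff and 10.4, 11.3, and 24.9 CPM in T_RM-like cells. In all 3, T_RM-like replicates 1 and 2 lay below T_Eff, and replicate 3 lay within or above the T_Eff range.

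Not all hosts were high in T_RM-like replicate 3. 2410006H16Rik, with 3 snoRNAs, had its lowest value in T_RM-like replicate 3, with 73.2, 90.6, and 46.3 CPM in T_RM-like replicates 1 to 3 and 56.8, 63.4, and 59.4 CPM in T_Eff. Every exonic base of this gene is shared with another annotated gene. Zfas1 and Snhg8 were level across samples, with 64.6 to 81.7 CPM for Zfas1 and 25.1 to 28.4 CPM for Snhg8 over all 6 samples. Snhg6, Snhg7, Snhg15, Snhg17, and Snhg20, the remaining hosts, had log2 fold changes between -0.14 and 0.25.

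**Figure D4:**
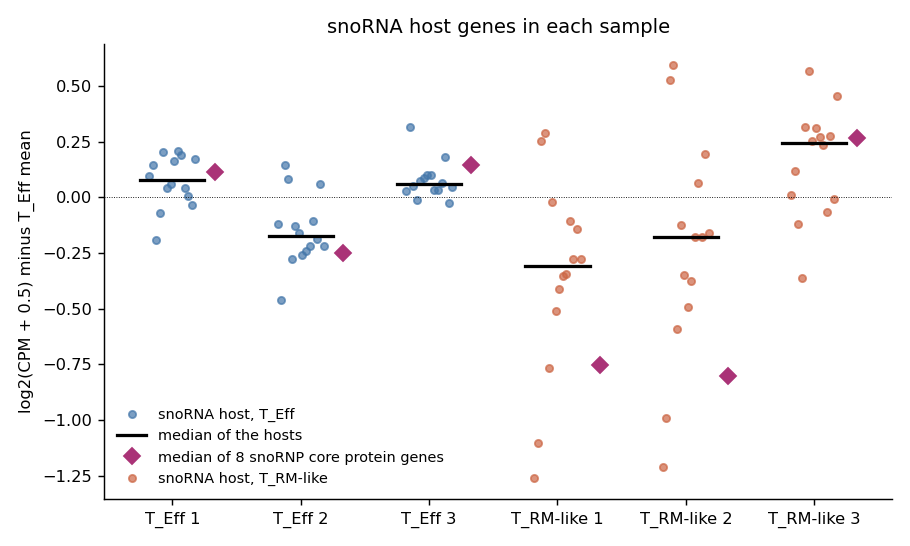
log2(CPM + 0.5) minus the T_Eff mean in each of the 6 samples for the 14 snoRNA hosts (points), with their median (line) and the median of 8 snoRNP core protein genes (diamond). The host median is lowest in T_RM-like replicate 1 (-0.31) and highest in T_RM-like replicate 3 (0.24), and the core protein genes spread further, from -0.80 in T_RM-like replicate 2 to 0.26 in T_RM-like replicate 3.

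The 7 miRNA hosts included AU020206, the one that passed the threshold. The mature miRNAs below, from the RefSeq miRNA table (GRCm38.p6), show what the better known hosts carry, with the seed (bases 2 to 8) in capitals. Levels of the mature miRNAs were not analysed here.
mmu-miR-142a-3p (Mir142hg): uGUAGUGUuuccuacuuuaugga
mmu-miR-142a-5p (Mir142hg): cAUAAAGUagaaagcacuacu
mmu-miR-15a-5p (Dleu2): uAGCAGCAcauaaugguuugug
mmu-miR-16-5p (Dleu2): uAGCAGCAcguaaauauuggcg
mmu-miR-17-5p (Mir17hg): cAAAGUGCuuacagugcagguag
mmu-miR-20a-5p (Mir17hg): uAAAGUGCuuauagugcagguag
mmu-miR-18a-5p (Mir17hg): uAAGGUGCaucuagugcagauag
mmu-miR-19a-3p (Mir17hg): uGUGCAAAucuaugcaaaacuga
mmu-miR-19b-3p (Mir17hg): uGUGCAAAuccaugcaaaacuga
mmu-miR-92a-3p (Mir17hg): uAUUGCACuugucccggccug
mmu-let-7a-5p (6720427I07Rik): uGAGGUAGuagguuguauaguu
mmu-let-7d-5p (6720427I07Rik): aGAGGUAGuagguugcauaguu
mmu-let-7f-5p (6720427I07Rik): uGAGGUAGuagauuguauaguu
By seed, miR-15a and miR-16 form a pair, as do miR-17 with miR-20a and miR-19a with miR-19b, and the let-7 miRNAs of 6720427I07Rik share 1 seed. Mir142hg measured 128, 158, and 114 CPM in T_Eff and 154, 155, and 88.7 CPM in T_RM-like replicates 1 to 3, with a log2 fold change of -0.01 ± 0.23 whose sign turned under other scalings. Dleu2, the host of the tumour-suppressing miR-15a and miR-16, varied little, with 45.8 to 49.3 CPM in T_Eff and 41.7 to 47.7 CPM in T_RM-like cells.

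Mir17hg was not steady. It measured 31.8, 22.0, and 31.0 CPM in T_Eff and 14.2, 14.98, and 40.5 CPM in T_RM-like replicates 1 to 3. T_RM-like replicates 1 and 2 were below every T_Eff sample and replicate 3 above every one, and the log2 fold change was -0.28 ± 0.38 over all samples and -0.96 without T_RM-like replicate 3. The let-7 host 6720427I07Rik measured 27.5 to 30.6 CPM in T_Eff and 33.6 to 37.6 CPM in T_RM-like cells, without overlap, but its log2 fold change of 0.24 ± 0.12 was small. Snhg20, which also carries a snoRNA, and 2310001H17Rik had overlapping groups, with log2 fold changes of 0.25 ± 0.20 and -0.15 ± 0.22. Genes of the miRNA processing machinery did not pass (0 of 6 in edgeR and DESeq2, 0 at an unadjusted p below 0.05), with a median log2 fold change of -0.14.

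Of 15 tested genes on a list of lncRNAs known from T cells and other lymphocytes, 6 were members and none of those 6 passed (0 in edgeR's quasi-likelihood test and in DESeq2, and 0 at an unadjusted p below 0.05). Besides Gas5, Snhg1, and the hosts Mir17hg, Mir142hg, and Dleu2, they included Pvt1, the neighbour of Myc, which measured 15.9 to 23.7 CPM in T_Eff and 15.7 to 17.3 CPM in T_RM-like cells. The 1 gene of the list that passed, Mirt1, was no member because its lowest count was 52, and Tug1 was none because the annotation types it as protein-coding. Of the imprinted lncRNAs, Kcnq1ot1 was a member, and of the X inactivation centre none was, with Xist at 0 to 7 counts. The residency genes Itgae and Cdh1, given for scale, summed to 20.7 to 30.7 CPM in T_Eff and 350 to 806 CPM in T_RM-like cells. The log2 fold changes of the 94 members reached at most 1.71 upward and -1.73 downward. Among the 8466 genes of any type with the same minimum count they reached 4.57 and -3.38.

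For 84 members the nearest or overlapping protein-coding gene could be tested, and in 52 of them the signs of the log2 fold changes were the same. Over the 36 that overlapped or were divergent, the correlation across genes of the 2 log2 fold changes was 0.393 (Pearson), a description only, since both values of a pair come from the same 6 libraries and partly from overlapping transcripts. The neighbour passed the threshold for 7 of these 84 members, with Cd8a counted once for each of its members. Of all genes tested 3.01% passed, and of the genes with the same minimum count 3.58%. Cd8a, the CD8 coreceptor chain, was the neighbour of both Gm44174, 143 bases away, and Gm44175, 12039 bases away. Cd8a had means of 436 CPM in T_Eff and 963 CPM in T_RM-like cells, with a log2 fold change of 1.14.

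Gm44174 measured 20.0, 31.8, and 17.9 CPM in T_Eff and 38.3, 32.2, and 34.9 CPM in T_RM-like replicates 1 to 3. All T_RM-like values were higher, by a narrow margin over T_Eff replicate 2, and the log2 fold change was 0.60 ± 0.21 (edgeR quasi-likelihood test, Benjamini-Hochberg adjusted p = 0.227). Gm44175, on the other strand of the same region, measured 27.3, 41.3, and 23.9 CPM in T_Eff and 46.5, 41.8, and 43.7 CPM in T_RM-like cells, with a log2 fold change of 0.51 ± 0.20. The library kit marks strand, but whether the counting used it is not given in the sources used here, so reads of overlapping genes on opposite strands may not have been separated.

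Nabp1, a single-stranded DNA-binding protein gene 25607 bases from Gm17767, measured 153, 188, and 148 CPM in T_Eff and 80.2, 90.8, and 85.7 CPM in T_RM-like replicates 1 to 3. Here T_RM-like replicate 3 sat with the other samples of its group, unlike in Gm17767. The log2 fold change of Nabp1 was -0.93 ± 0.14 (edgeR quasi-likelihood test, Benjamini-Hochberg adjusted p = 0.00896). In the other 4 pairs, Parp9 with Gm15564, Dennd2d with 2010016I18Rik, Epm2a with Gm63661, and Ifngr1 with Gm33104, the member itself did not pass either. The signs were opposite in the pairs of Epm2a and Ifngr1, and Epm2a was near the floor, with 0.137 to 2.45 CPM.

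**Figure D5:**
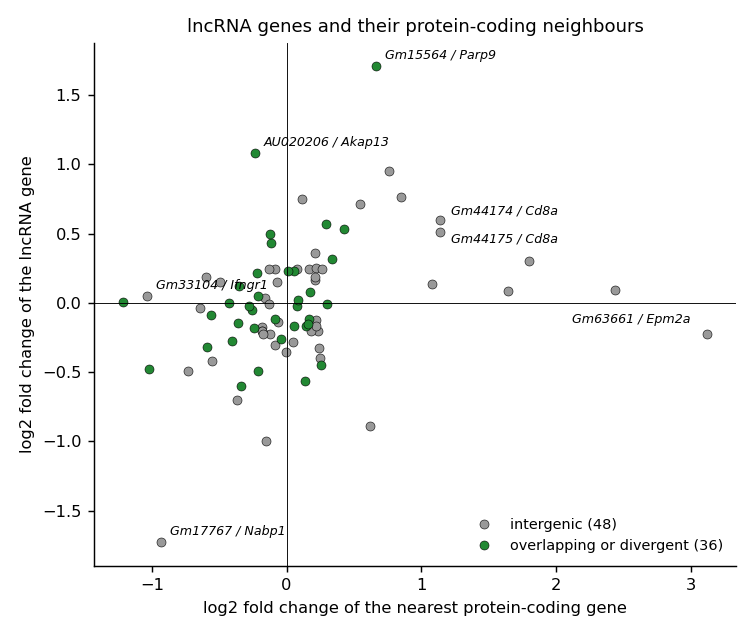
log2 fold change, T_RM-like over T_Eff, of the nearest protein-coding gene (x axis) and of the lncRNA gene (y axis) for the 84 members with a tested neighbour, with overlapping or divergent pairs in green and intergenic pairs in grey. Most pairs lie near 0 on both axes. Gm17767 with Nabp1 and Gm15564 with Parp9 have the same sign on both. AU020206 with Akap13, Gm63661 with Epm2a, and Gm33104 with Ifngr1 have opposite signs.

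The sequence of several members limits what their counts can say. In 18 of the 94 at least 50% of the transcript matched another locus at 95% identity or more, and in 13 at least 90% did. Besides the group of Gm56730, the 18 included Gm5165 with Gm51425, Norad with Gm7292, and Erdr1x, whose whole transcript matched Erdr1y. Erdr1y is not among the 18, with 11.1% of its transcript matched elsewhere. The 18 also included copies of coding genes, among them Ndufb4b of Ndufb4, Gm70223 of Set, Gm66301 of Ube2v1, Gm28901 of Hnrnpf, and Gm63661 of Timm8a1. Gm10076, the member with the highest level per length, had 32.5% of its transcript matched elsewhere, to Rpl41. Its level per length rests on a listed length of 407 bases, whereas the later annotation used for the matching gives it 1379 exonic bases. The matched share of the bases that were counted is therefore not known and may be larger. It measured 192, 180, and 208 CPM in T_Eff and 223, 258, and 156 CPM in T_RM-like replicates 1 to 3, with overlapping groups and a log2 fold change of 0.14 ± 0.19. Only 30 members shared no exonic base with another annotated gene, and 9 lay wholly inside the body of a protein-coding gene.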

How the data were processed

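RNA sequencing was analysed in 3 T_Eff and 3 T_RM-like samples, grouped by their titles. Per the labels, the library kit was a stranded total RNA kit, and the submitters' processing notes name cutadapt 4.8 and DESeq2 1.40.2. After trimming, the authors used Rsubread for mapping and counting on GRCm39 with a GENCODE annotation, and deposited raw counts per gene with gene lengths, without normalization. The strand setting and the handling of reads with several hits are not given in the sources used here. The study names a batch correction for its plots but no batch, so none was applied.

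Gene types and positions came from a later GENCODE release of GRCm39, in which 56620 genes were found and 506 were not. The members and all gene lists were chosen with earlier results of these data known. Named members were those past the threshold, those in the lists, the miRNA hosts, the 10 highest per length, and the genes at the limit of the rule, and any other member named was picked with its values in view.

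The 26154 genes that had a count of 1 or more in 3 or more samples entered edgeR's quasi-likelihood test (version 4.0.16, R 4.3.3, TMM), with Benjamini-Hochberg adjustment over all of them. The SE is the log2 fold change divided by the square root of F. DESeq2 1.42.0, limma 3.58.1 (voom), other scalings, filters, a replicate block, a subtracted background, and leaving out each sample were alternatives. The main fit judged on adjusted p alone was another, and the code was tested on simulated data. Transcripts were matched to others with blastn at 95% identity or more over at least 75 bases. The totals of 18319013 to 23622621 counts limit precision by counting error only.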

Additional observations from a re-analysis of the deposited data

Results flagged for a closer look

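Reads fell on olfactory and vomeronasal receptor genes, which T cells are not known to use, in 2 libraries. Of 1546 such genes, 956 had a read in T_RM-like replicate 1 and 1013 in T_RM-like replicate 2, against 46 to 55 in the 3 T_Eff samples and 49 in T_RM-like replicate 3. These genes are not members. Any of them with a count of 1 or more in 3 or more samples were among all genes tested, over which p was adjusted. Subtracting this background left 1 member higher and 2 lower, as before, and all 94 genes still reached the minimum count of 200. The cause was not tested.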

How the results depend on the processing

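AU020206 kept its direction and its call in all 17 alternatives, with adjusted p-values up to 0.0444 (edgeR, DESeq2, or limma-voom). Among the 17 is the main fit judged on adjusted p alone, in which no called gene could lose its call. Gm56730 kept its call in 11, with log2 fold changes of -1.06 to -0.74, and Gm2682 in 8, with -2.02 to -1.24, and neither was called once any sample other than T_RM-like replicate 3 was left out. Fewer samples enter those fits. Members higher in T_RM-like cells (1) numbered 3 with DESeq2, 8 with no filter, and 1 to 12 when 1 sample was left out. Members lower (2) numbered 4 with DESeq2, 1 with DESeq2 size factors, with filterByExpr, or when every sample had to hold 10 counts, 6 with no filter, 0 on library totals alone (edgeR), and 0 to 14 when 1 sample was left out. All genes past the threshold (786) numbered 1256 with DESeq2, 1868 with no filter, and 263 to 3579 when 1 sample was left out, the highest of these 3 ranges always without T_RM-like replicate 3. Apart from DESeq2 and the fit without T_RM-like replicate 3, the share of all genes is not given here for these fits. Those member counts are therefore not set against a background. The count limit set the number of members, 180 at 100 counts and 33 at 500 counts. The cause of these shifts was not tested.

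Same-numbered samples correlated at -0.292, 0.309, and 0.388 in their deviations from the group means. These values differ in sign and rest on few samples per group. They cannot decide whether the replicate numbers pair the samples. With the replicate number as a block, 7 members were higher and 6 lower (13.8%), and 2034 genes (7.78%) passed. When the block was joined to a minimum of 10 counts in every sample, an alternative chosen after seeing the data, 4 were higher and 4 lower. For that last fit the share of all genes is not given here.

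The sign of 24 of the 94 members, none of them past the threshold, changed when 1 sample was left out, and the largest of their log2 fold changes over all samples was 0.3189 in size (2010016I18Rik). Mir142hg turned to 0.0069 with DESeq2 and with its size factors, 0.0087 with filterByExpr, 0.0079 with a minimum of 10 counts per sample, and 0.0052 with the background subtracted, and ranged from -0.14 to 0.20 when 1 sample was left out. The same omission gave -0.5174 to 0.0806 for 2010016I18Rik, -0.0053 to 0.4426 for 2410006H16Rik, -0.1098 to 0.1856 for Gm33104, -0.3106 to 0.051 for 2310001H17Rik, -0.0068 to 0.4109 for C030029H02Rik, -0.0313 to 0.3048 for Gm10076, -0.989 to 0.0483 for Gm63661, -0.4053 to 0.09 for Neat1, -0.2795 to 0.0332 for Snhg1, -0.0862 to 0.3005 for Snhg17, -0.2491 to 0.0626 for Snhg6, -0.2443 to 0.1745 for Snhg7, -0.091 to 0.0125 for Snhg8, and -0.0765 to 0.099 for Zfas1.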

Other observations

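Several lncRNA genes with known roles lay below the count limit of the members. Mirt1 was lower in T_RM-like cells, with 8.05, 13.3, and 8.57 CPM in T_Eff replicates 1 to 3 and 4.32, 4.46, and 2.40 CPM in T_RM-like replicates 1 to 3 (log2 fold change -1.42 ± 0.29, edgeR quasi-likelihood test, Benjamini-Hochberg adjusted p = 0.035). Ifngas1, which lies next to the interferon-γ gene, had 5, 9, and 2 counts in T_Eff and 0 in every T_RM-like library, and did not pass the threshold (edgeR quasi-likelihood test, Benjamini-Hochberg adjusted p = 0.0881). Morrbid, known for controlling the lifespan of short-lived myeloid cells, measured 2.42, 2.68, and 2.98 CPM in T_Eff and 4.84, 4.50, and 3.41 CPM in T_RM-like cells, without overlap, with a log2 fold change of 0.66 ± 0.22 that did not pass.

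Among imprinted lncRNAs, Peg13 measured 2.74, 5.26, and 3.32 CPM in T_Eff and 7.89, 7.99, and 4.43 CPM in T_RM-like cells, with a log2 fold change of 0.84 ± 0.31 that did not pass. Meg3 had 0 counts in every T_Eff library and 8, 7, and 1 in T_RM-like replicates 1 to 3, where replicates 1 and 2 are the libraries with reads on receptor genes. Mirg, from the same imprinted region, had 3 and 4 counts in T_RM-like replicates 1 and 2 and 0 in the other libraries. The part of that background in these counts was not tested.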
